A study of Homo sapiens with 6 samples.

Results

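The older mammalian L1 subfamilies are the lineages of the L1 family, a class of long interspersed element (LINE), that are not the primate ones. They were taken by name from the deposited tables: every line with family L1 and class LINE, apart from L1HS and the names that start with L1P. That gave 83 subfamilies among 28953 genes and repeat families, of which 992 were repeat families. Of the 83, 82 had enough counts to be tested. The exception was HAL1N1_MD, with 0 and 0 counts in the TARDBP hairpin libraries, 0 and 1 in control hairpin 1 and 0 and 0 in control hairpin 2.

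RNA came from SH-SY5Y, a human neuroblastoma line that resembles immature sympathetic neurons, to which lentivirus had delivered 1 of 3 short hairpin RNAs (shRNA). The 6 libraries were 2 with hairpin TRCN0000016038 against TARDBP, 2 with control hairpin 1 (SHC007) and 2 with control hairpin 2 (SHC016). All cells were spun with virus in 8 µg/mL polybrene, and puromycin at 2 µg/mL was applied 48 hours later and kept on for 3 days. Only 1 hairpin against TARDBP was used, the cells were selected as populations, and nothing in the labels ties the paired libraries to distinct cultures. The p-values therefore measure only how far these libraries spread, part of which may be technical. The protein made from TARDBP is TDP-43, which binds RNA and leaves the nucleus of motor neurons in amyotrophic lateral sclerosis (ALS). The comparison asks how RNA counted on these L1 lineages differed between cells with the TARDBP hairpin and cells with each control hairpin.

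An intact L1 element encodes an RNA-binding protein and a protein with endonuclease and reverse transcriptase activity, and copies itself through an RNA intermediate. The older lineages stopped jumping long ago. Their remains are truncated, mutated copies scattered through introns and between genes, where reads on them can also come from longer transcripts that contain such copies. Within the L1M lineages, the letters A to E run roughly from the younger mammalian elements to the older ones, while HAL1 elements lack the other reading frame, the one for the enzyme. TDP-43 binds long UG-rich stretches in RNA and has been linked to the control of transposable element RNA.

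The 82 tested subfamilies were 12 named L1MA, 7 L1MB, 10 L1MC, 6 L1MD, 21 L1ME, 20 with a number after L1M (L1M1 to L1M7), 4 HAL1, and L1M and X9_LINE. Each value sums reads over all genomic copies of a subfamily, so it depends on how many copies there are and how long they are. Levels are therefore compared between hairpins and not between subfamilies. They are given as CPM, counts relative to library size, scaled between libraries by the trimmed mean of M values (TMM) over genes and repeat families together. A subfamily was called higher or lower where edgeR's quasi-likelihood test gave an adjusted p below 0.05. The Benjamini-Hochberg adjustment ran over the 17163 genes and families that could be tested.

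Library totals ran from 18605745 to 21698339 counts. TARDBP stood at 18.9 and 24.0 CPM with its own hairpin, against 80.9 and 72.4 CPM with control hairpin 1 and 92.7 and 81.5 CPM with control hairpin 2, a log2 fold change of -1.93 ± 0.126 against the mean of both controls (SE, edgeR, adjusted p = 1.68e-05). Of 11 noradrenergic neuroblastoma markers 10 were tested, and TH, which makes catecholamines, was at or near 0 in every library. Summed levels of the 11 were 1159 and 1026 CPM with the TARDBP hairpin, 2006 and 2256 CPM with control hairpin 1, and 1495 and 1683 CPM with control hairpin 2. Summed levels of 7 fibroblast markers were 102 and 122 CPM in TARDBP libraries, 1408 and 1416 CPM in control 1 libraries and 1759 and 1859 CPM in control 2 libraries, mostly COL3A1 in the controls. Those of 5 epithelial markers were 36.0 and 29.4 CPM in TARDBP libraries, 10.8 and 15.3 CPM in control 1 libraries and 82.8 and 133 CPM in control 2 libraries, of which KRT18 gave 76.3 and 124 CPM in control 2. EPCAM went the other way, with means of 5.11 CPM in TARDBP libraries, 0.78 CPM in control 1 libraries and 0.94 CPM in control 2 libraries, and KRT19 was highest in control 1, at 0.36, 1.84 and 0.45 CPM in TARDBP, control 1 and control 2 libraries. Of the fibroblast markers 6 were called lower with the TARDBP hairpin than the mean of both controls, and 1, DCN, higher. DCN means were 7.28, 0.87 and 2.06 CPM in TARDBP, control 1 and control 2 libraries. Of the noradrenergic markers 7 were called lower and 1, GATA3, higher, with means of 222, 199 and 153 CPM in the same order. Over all genes and families 24.3% were lower and 23.9% higher. The 4 blood markers summed to at most 0.801 CPM in any library. The part of these marker differences in the repeat counts was not tested.

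The share of counts on older L1 subfamilies was alike in TARDBP and control 1 libraries, and smaller in control 2 libraries. They took 3.43% and 3.65% of counts in the TARDBP libraries, 3.62% and 3.71% in the control 1 libraries, and 2.92% and 2.54% in the control 2 libraries. These shares rest on 543954 to 738944 counts per library. The TARDBP and control 1 libraries overlapped, and both control 2 libraries lay below the other 4. On the scaled level the sum over subfamilies averaged 36363 ± 299 CPM with the TARDBP hairpin, 35735 ± 634 CPM with control hairpin 1 and 27310 ± 1874 CPM with control hairpin 2 (SD, n = 2 each). On that scale 1 TARDBP library, at 36152 CPM, lay between the control 1 libraries at 35286 and 36183 CPM.

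The other repeat groups showed the same order of control hairpins. Primate L1 subfamilies took 1.44% and 1.57% of counts in the TARDBP libraries, 1.58% and 1.62% in the control 1 libraries, and 1.31% and 1.17% in the control 2 libraries. The L2, CR1, RTE and MIR families, which are LINEs of other kinds and an ancient short element, took 4.41% and 4.52% of counts in TARDBP libraries, 4.58% and 4.76% in control 1 libraries, and 4.01% and 3.88% in control 2 libraries. All repeat families together took 25.7% and 24.7% in TARDBP libraries, 23.4% and 24.8% in control 1 libraries, and 20.6% and 20.9% in control 2 libraries. Within L1 as a whole, the older subfamilies made up 70.4% and 69.9% of L1 counts in the TARDBP libraries, 69.7% and 69.6% in the control 1 libraries, and 69.1% and 68.6% in the control 2 libraries. The split between older and primate L1 thus spanned less than 2 percentage points over the 6 libraries. These are shares of RNA in bulk samples, where fewer cells that make a transcript and less of it per cell cannot be told apart.

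**Figure D1:**
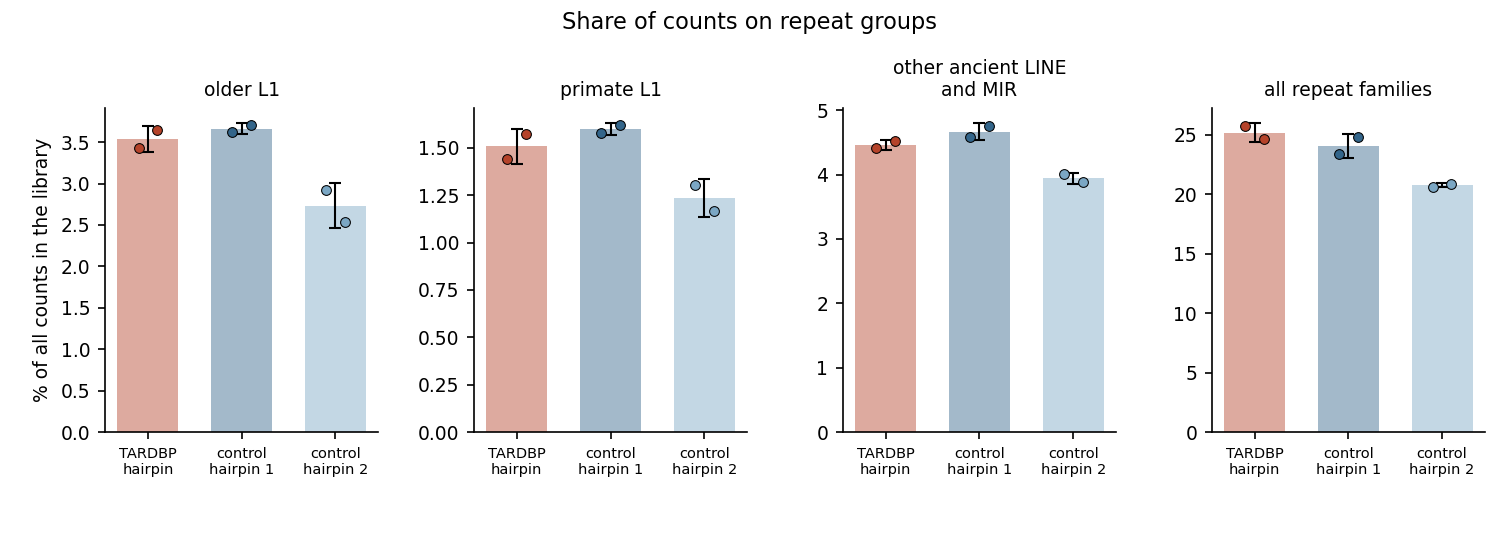
Percentage of all counts in each library that fell on older L1, primate L1, other ancient LINE and MIR, and all repeat families, with points for libraries, bars for means and error bars for SD (n = 2 each); each panel has its own axis from 0. In all 4 panels both control hairpin 2 libraries lie below the TARDBP hairpin and control hairpin 1 libraries, and for older L1 they lie at 2.92% and 2.54%.

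Single subfamilies followed the sum. Both control 2 libraries lay below the other 4 libraries for 75 of the 82 subfamilies, against 23.0% of all genes and families tested. The lowest of the 6 libraries was control hairpin 2 replicate 2 for 71 subfamilies, control hairpin 2 replicate 1 for 9, and control hairpin 1 replicate 1 for 2. The highest was TARDBP hairpin replicate 2 for 34, control hairpin 1 replicate 2 for 26, TARDBP hairpin replicate 1 for 15 and control hairpin 1 replicate 1 for 7. The 7 subfamilies where control hairpin 2 was not below all others were HAL1-3A_ME, HAL1b, L1M2a1, L1M3a, L1M, L1MDb and X9_LINE.

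**Figure D2:**
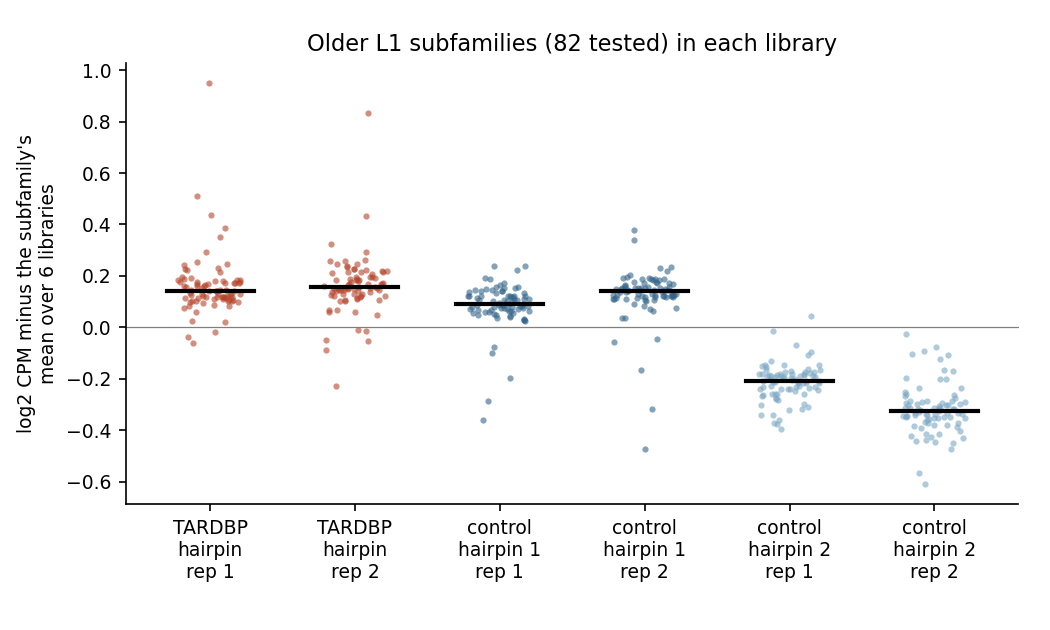
Deviation of each of the 82 tested older L1 subfamilies from its own mean over the 6 libraries, in log2 CPM, by library; each point is a subfamily and each black bar the median of a library. Medians are 0.14 and 0.16 in the TARDBP hairpin libraries, 0.09 and 0.14 in control hairpin 1, and -0.21 and -0.33 in control hairpin 2.

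Against the mean of both control hairpins, 44 of the 82 subfamilies were higher with the TARDBP hairpin and 0 were lower, where 23.9% of all genes and families were higher and 24.3% lower. The median log2 fold change was 0.22, with quartiles at 0.18 and 0.28 and extremes at -0.10 and 1.34. At an unadjusted p below 0.05, edgeR's counts were 62 higher and 0 lower, where 9489 of all 17163 genes and families passed in either direction. At an adjusted p below 0.05, where edgeR called 44 and 0, DESeq2 called 27 and 0. DESeq2 calls over all genes and families were not counted. Over all genes and families the median was 0.04, and over the 961 tested repeat families it was 0.25, with 407 higher and 2 lower. Over the 39 primate L1 subfamilies it was 0.18, with 16 higher and 0 lower. In 2 of the 44, L1M2a1 and L1M2b, the rise was over 1.5-fold, and 2349 of all 17163 genes and families were called higher by that much. For the refits that follow, the share of all genes and families called was not counted. The count of 44 was as low as 9 when 1 library was left out (11 and 9 without TARDBP hairpin replicate 1 or 2, 23 and 29 without control hairpin 1 replicate 1 or 2, 16 without control hairpin 2 replicate 2), and was 2 with the 4 control libraries taken as 1 group.

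That mean joins 2 unlike controls. Both TARDBP libraries lay above all 4 control libraries for 34 subfamilies, against 23.3% of all genes and families, and below all 4 for 0. The mean with the TARDBP hairpin lay between the means of control hairpins 1 and 2 for 31 subfamilies, above both for 51 and below both for 0. The same split of all genes and families was not counted. Of the 44 subfamilies called higher, 38 were not called against control hairpin 1 alone.

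Against control hairpin 1, 6 subfamilies were higher with the TARDBP hairpin and 0 were lower, where 21.1% of all genes and families were higher and 21.8% lower. At an unadjusted p below 0.05, edgeR's counts were 6 higher and 1 lower, the lower one being L1M2a. In either direction, 8713 of all 17163 genes and families passed that threshold. At an adjusted p below 0.05, DESeq2 called 2 higher and 0 lower, and its calls over all genes and families were not counted. The median log2 fold change was 0.03, equal to 0.03 over all genes and families and below the 0.12 of all repeat families. Both TARDBP libraries lay above both control 1 libraries for 34 subfamilies, below both for 13, and overlapped them for 35. How often all genes and families fell in these ways was not counted, so these counts have no background share. The median SE was 0.0902 on the log2 scale, and for 76 subfamilies the 95% interval of the difference lay within 1.5-fold in both directions. The count of 6 was 1 and 2 without TARDBP hairpin replicate 1 or 2, 1 and 3 without control hairpin 1 replicate 1 or 2, and 4 and 3 without control hairpin 2 replicate 1 or 2. The share of all genes and families called in those refits was not counted. By the 95% intervals, a missing call is bounded for most subfamilies, but differences well under 1.5-fold remain within them.

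Against control hairpin 2, 73 subfamilies were higher with the TARDBP hairpin and 0 were lower, where 24.0% of all genes and families were higher and 26.2% lower. The median log2 fold change was 0.41, a fold of 1.33, beside 0.02 over all genes and families and 0.38 over both all repeat families and primate L1. Both TARDBP libraries lay above both control 2 libraries for 79 subfamilies, and the others were HAL1-3A_ME, HAL1b and L1M. The share of all genes and families placed this way was not counted. The rise was over 1.5-fold in 4, namely L1M2a1, L1M3f, L1M2b and L1MCa. Of all 17163 genes and families, 2598 were called higher by that much. Of the 73, 67 were called only against this control, and all 6 called against control hairpin 1 were among them. Without control hairpin 2 replicate 2 the count was 30. The share of all genes and families called without that library was not counted. With libraries scaled on repeat families alone the count was 4, with 1 lower and a median of 0.06. On that scale 9.58% of all genes and families were higher and 44.3% lower.

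Control hairpin 2 was lower than control hairpin 1 for 71 of the 82 subfamilies and higher for 0, where 22.8% of all genes and families were higher and 20.4% lower. The median log2 fold change was -0.39, beside -0.01 over all genes and families, -0.25 over all repeat families, -0.35 over primate L1 and -0.24 over the L2, CR1, RTE and MIR families. Only L1MDb had a positive value, 0.01. At an unadjusted p below 0.05, edgeR's count higher was 0 here, as was its count lower for the TARDBP hairpin against control hairpin 2. In either direction, 8915 and 9805 of all 17163 genes and families passed in these comparisons. At an adjusted p below 0.05, DESeq2 called 0 in both as well, and its calls over all genes and families were not counted. For 68 subfamilies the TARDBP hairpin was higher than control hairpin 2 while control hairpin 2 was lower than control hairpin 1. These comparisons share the control 2 libraries, so the counts are not independent of each other. The share of all genes and families called in both ways was not counted. With 1 library left out, the median log2 fold change ran from -0.45 to -0.31. The control 2 replicates were less alike on these subfamilies than other replicates. Counts set against library totals, without TMM, gave them a chi-square of 70.5 per subfamily. It was 18.6 for the TARDBP hairpin and 4.71 for control hairpin 1, where sampling noise alone gives about 1. These values include differences in scaling between replicates. On the TMM scale the SD of the summed level was 1874 CPM for control hairpin 2, 299 CPM for the TARDBP hairpin and 634 CPM for control hairpin 1.

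**Figure D3:**
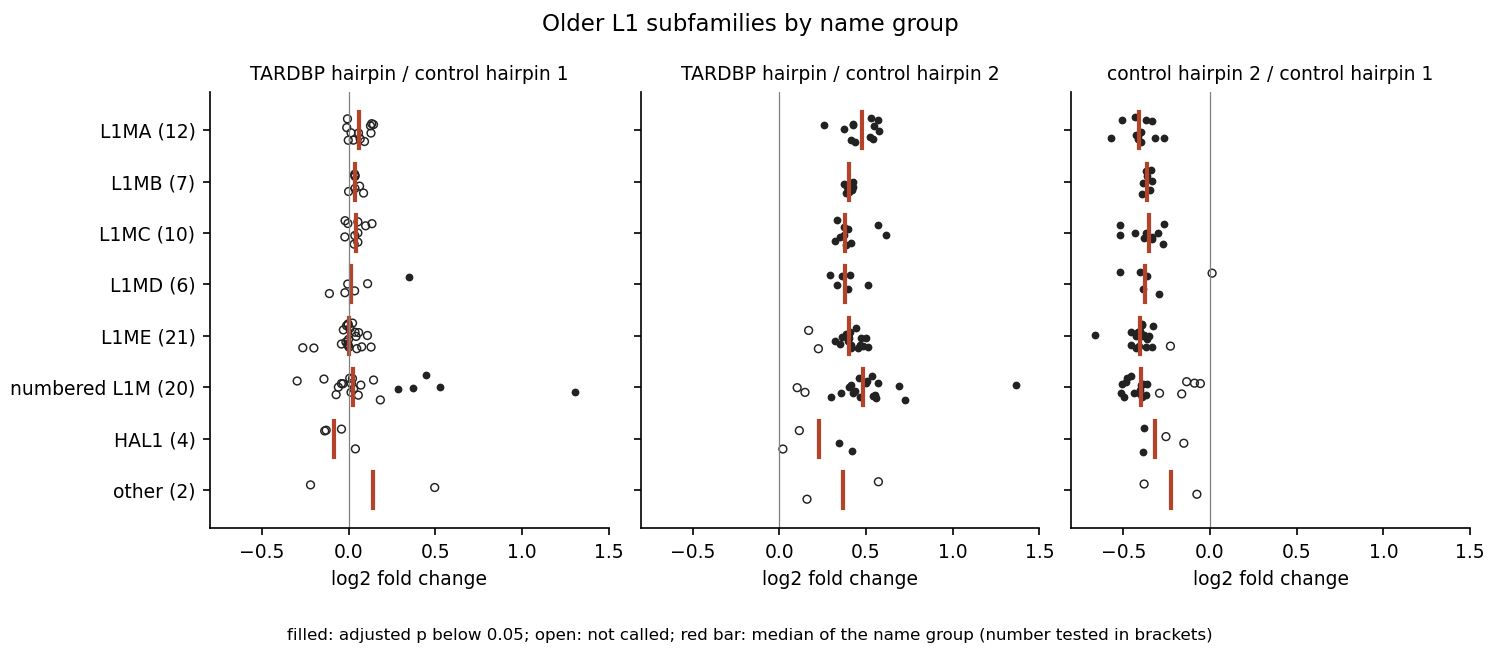
Log2 fold change of each tested older L1 subfamily by name group, for the TARDBP hairpin over control hairpin 1, the TARDBP hairpin over control hairpin 2, and control hairpin 2 over control hairpin 1; filled points have an adjusted p below 0.05 (edgeR) and red bars are group medians. In the first panel 6 points are filled, 5 of them numbered L1M, while 73 are filled in the second and 71 in the third.

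The most counted subfamilies were level between the TARDBP hairpin and control hairpin 1. L1M5, a numbered lineage with the most counts of all 83, stood at 2507 and 2546 CPM with the TARDBP hairpin, 2477 and 2523 CPM with control hairpin 1, and 2020 and 1799 CPM with control hairpin 2. Its TARDBP and control 1 libraries overlapped and control 2 lay apart. L1M5 differed from control hairpin 1 by a log2 fold change of 0.02 ± 0.0939 (SE, edgeR, adjusted p = 0.912) and from control hairpin 2 by 0.40 ± 0.0941 (adjusted p = 0.00781). L1M4, the next numbered lineage by counts, stood at 845 and 869 CPM in TARDBP libraries, 873 and 891 CPM in control 1 libraries and 667 and 602 CPM in control 2 libraries. With L1M4 both TARDBP libraries lay just below control 1 and well above control 2.

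The L1MA lineages, the youngest mammalian ones by name, rose against the mean of both controls in 10 of 12, with a median of 0.26. All 12 were higher than control hairpin 2 and 0 of 12 were called against control hairpin 1, where the median was 0.06. L1MA9, the most counted, stood at 786 and 790 CPM with the TARDBP hairpin, 775 and 786 CPM with control hairpin 1, and 581 and 517 CPM with control hairpin 2. The TARDBP and control 1 values of L1MA9 met at 786 CPM. L1MA3 stood at 704 and 702 CPM in TARDBP libraries, 638 and 683 CPM in control 1 libraries and 554 and 495 CPM in control 2 libraries, so its TARDBP libraries lay above all 4 controls. Against control hairpin 1 the log2 fold change of L1MA3 was 0.09 ± 0.0928 (SE, edgeR, adjusted p = 0.460). L1MA1 had one of the larger differences between the controls: it stood at 327 and 338 CPM with the TARDBP hairpin, 324 and 343 CPM with control hairpin 1, and 252 and 197 CPM with control hairpin 2. Its 2 control 2 libraries were the lowest and also far apart. Control hairpin 2 against control hairpin 1 gave L1MA1 a log2 fold change of -0.57 ± 0.12 (SE, edgeR, adjusted p = 0.00592).

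The L1MB lineages gave values close to each other, and the L1MC lineages spread wider. Against the mean of both controls, 5 of 7 L1MB and 4 of 10 L1MC subfamilies were higher, with medians of 0.22 and 0.20, and against control hairpin 2 all 7 and all 10 were. The 7 L1MB values against control hairpin 2 ran from 0.38 to 0.43 and the 10 L1MC values from 0.32 to 0.62, with an SD over subfamilies of 0.0216 and 0.0996. Against control hairpin 1 the L1MB values ran from -0.00058 to 0.09. L1MB7 stood at 1311 and 1348 CPM with the TARDBP hairpin, 1287 and 1307 CPM with control hairpin 1, and 1069 and 981 CPM with control hairpin 2. L1MB3 stood at 917 and 950 CPM in TARDBP libraries, 940 and 928 CPM in control 1 libraries and 741 and 686 CPM in control 2 libraries. L1MB7 was thus highest in the TARDBP libraries by a small margin, while L1MB3 overlapped with control 1. Of the L1MC lineages, L1MC4 stood at 1351 and 1394 CPM with the TARDBP hairpin, 1331 and 1347 CPM with control hairpin 1, and 1100 and 1023 CPM with control hairpin 2. L1MC4a stood at 1313 and 1322 CPM in TARDBP libraries, 1304 and 1339 CPM in control 1 libraries and 1064 and 970 CPM in control 2 libraries. Neither L1MC4 (log2 fold change 0.04) nor L1MC4a (-0.0046) was called against control hairpin 1, with adjusted p of 0.770 and 0.973 by edgeR. L1MCa, one of the 4 subfamilies over 1.5-fold against control hairpin 2, stood at 336 and 344 CPM with the TARDBP hairpin, 319 and 317 CPM with control hairpin 1, and 232 and 211 CPM with control hairpin 2. All 3 hairpins were separate for L1MCa, with a log2 fold change of 0.62 ± 0.0873 against control hairpin 2 (SE, edgeR, adjusted p = 6.98e-04) and 0.10 ± 0.0868 against control hairpin 1 (adjusted p = 0.396). L1MCc lay close to it, at 0.57 ± 0.0961 against control hairpin 2.

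Of the L1MD lineages 4 of 6 rose against the mean of both controls, with a median of 0.24. L1MD2 stood at 610 and 611 CPM with the TARDBP hairpin, 648 and 671 CPM with control hairpin 1, and 523 and 476 CPM with control hairpin 2, and so lay between the controls. L1MD stood at 482 and 490 CPM in TARDBP libraries, 447 and 455 CPM in control 1 libraries and 376 and 359 CPM in control 2 libraries, above both. Neither was called against control hairpin 1, with log2 fold changes of -0.11 for L1MD2 and 0.11 for L1MD (edgeR, adjusted p = 0.340 and 0.317).

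The L1ME lineages, the oldest by name and the largest group, held 28.7% of the counts on older L1. Of the 21, 8 rose against the mean of both controls and 18 against control hairpin 2, and 0 were called against control hairpin 1. L1ME1 stood at 1717 and 1734 CPM with the TARDBP hairpin, 1707 and 1747 CPM with control hairpin 1, and 1373 and 1213 CPM with control hairpin 2. L1ME4a stood at 1467 and 1453 CPM in TARDBP libraries, 1431 and 1476 CPM in control 1 libraries and 1179 and 1044 CPM in control 2 libraries. For both the TARDBP libraries fell inside the range of control 1. The smallest L1ME subfamily by counts, L1MEa, had the lowest value between the controls: it stood at 8.17 and 7.53 CPM with the TARDBP hairpin, 8.97 and 9.89 CPM with control hairpin 1, and 5.79 and 6.12 CPM with control hairpin 2. The 3 hairpins did not overlap for L1MEa, and control hairpin 2 against control hairpin 1 gave -0.66 ± 0.151 on the log2 scale (SE, edgeR, adjusted p = 0.00843). L1MEg1 stood at 27.8 and 26.4 CPM in TARDBP libraries, 32.2 and 30.2 CPM in control 1 libraries and 23.9 and 24.3 CPM in control 2 libraries, also between the controls, with -0.02 against their mean (edgeR, adjusted p = 0.898).

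HAL1 elements had the lowest median of the name groups. None of the 4 tested was called against the mean of both controls (edgeR, 1 at an unadjusted p below 0.05), and their median was 0.07. Against control hairpin 2, HAL1 and HAL1-2a_MD were higher with the TARDBP hairpin, and both were lower with control hairpin 2 than with control hairpin 1. HAL1-2a_MD had log2 fold changes of 0.23 against the mean of both controls, 0.04 against control hairpin 1 and 0.42 against control hairpin 2. HAL1, by far the most counted of them, stood at 1385 and 1421 CPM with the TARDBP hairpin, 1437 and 1452 CPM with control hairpin 1, and 1143 and 1063 CPM with control hairpin 2. HAL1b stood at 157 and 153 CPM in TARDBP libraries, 168 and 171 CPM in control 1 libraries and 157 and 148 CPM in control 2 libraries, with both TARDBP libraries below control 1 and level with control 2. HAL1-3A_ME stood at 21.6 and 23.3 CPM in TARDBP libraries, 24.8 and 24.5 CPM in control 1 libraries and 23.2 and 18.3 CPM in control 2 libraries. No HAL1 subfamily had both TARDBP libraries above all 4 controls, against 23.3% of all genes and families. In 3 HAL1 subfamilies both lay below control 1, and the share of all genes and families placed this way was not counted. Whether HAL1 differed from the L1M groups was not tested. Of the pair outside the name groups, L1M stood at 24.2 and 18.3 CPM in TARDBP libraries, 25.1 and 24.5 CPM in control 1 libraries and 17.9 and 20.2 CPM in control 2 libraries, and X9_LINE, the least counted of those tested, at 2.69 and 2.18 CPM in TARDBP libraries, 1.94 and 1.52 CPM in control 1 libraries and 1.47 and 1.79 CPM in control 2 libraries. Neither was called in any of the 4 comparisons.

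The numbered L1M lineages held 5 of the 6 subfamilies called higher than each control. Of 20, 13 rose against the mean of both controls, 18 against control hairpin 2 and 5 against control hairpin 1. The 6 subfamilies called against each control alone were L1M2a1, L1M2b, L1M3a, L1M3b and L1M3f of this group, and L1MDb. All 6 were among the 23 subfamilies with a mean below 100 CPM, where single values scattered more: the SD of the log2 fold change against the mean of both controls was 0.30 over these 23 and 0.07 over the other 59.

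L1M2a1 stood furthest apart. It was counted at 19.7 and 18.2 CPM with the TARDBP hairpin, 7.95 and 7.34 CPM with control hairpin 1, and 8.05 and 6.69 CPM with control hairpin 2. Both TARDBP libraries were more than 2 times as high as any of the 4 control libraries, and the controls overlapped each other. L1M2a1 rose by a log2 fold change of 1.34 ± 0.122 against the mean of both controls (SE, edgeR, adjusted p = 8.11e-05), a fold of 2.52. Against control hairpin 1 it was 1.31 ± 0.147 (adjusted p = 2.38e-04) and against control hairpin 2 1.36 ± 0.148 (adjusted p = 1.83e-04). Among the 961 tested repeat families L1M2a1 ranked 4 by log2 fold change and 2 by p against the mean of both controls. It was the only older L1 subfamily called against control hairpin 1 under all 12 alternative settings, leaving out each library included. The table gives 1 total per subfamily, so how many genomic copies gave these reads is not known here.

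Its relatives by name did not share that size. L1M2a stood at 27.3 and 26.3 CPM with the TARDBP hairpin, 30.4 and 35.4 CPM with control hairpin 1, and 24.2 and 25.7 CPM with control hairpin 2, between the controls. Its log2 fold change against their mean, -0.10 ± 0.1 (SE, edgeR, adjusted p = 0.451), was the lowest of the 82. L1M2b stood at 10.6 and 10.96 CPM with the TARDBP hairpin, 7.70 and 7.25 CPM with control hairpin 1, and 6.26 and 7.07 CPM with control hairpin 2. The L1M2b libraries with the TARDBP hairpin lay above all controls, with log2 fold changes of 0.53 ± 0.145 against control hairpin 1 (SE, edgeR, adjusted p = 0.0184) and 0.69 ± 0.146 against control hairpin 2 (adjusted p = 0.00501). The call of L1M2b against control hairpin 1 was lost with DESeq2 (adjusted p = 0.0560) and without either TARDBP or either control 1 library (adjusted p = 0.0511 to 0.0933).

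The 3 L1M3 lineages called rose by less. L1M3a stood at 33.7 and 29.1 CPM with the TARDBP hairpin, 20.4 and 25.6 CPM with control hairpin 1, and 21.0 and 22.2 CPM with control hairpin 2. L1M3b stood at 16.8 and 16.8 CPM in TARDBP libraries, 12.8 and 13.2 CPM in control 1 libraries and 11.7 and 11.97 CPM in control 2 libraries. L1M3f stood at 54.3 and 53.3 CPM in TARDBP libraries, 44.7 and 43.6 CPM in control 1 libraries and 33.6 and 31.5 CPM in control 2 libraries. In all 3 the TARDBP libraries lay above all controls, and L1M3f was the one whose controls also differed, with control hairpin 2 lower by a log2 fold change of -0.44 (edgeR, adjusted p = 0.00611). Against control hairpin 1 the log2 fold changes were 0.45 ± 0.139 for L1M3a, 0.37 ± 0.119 for L1M3b and 0.29 ± 0.0921 for L1M3f (SE, edgeR, adjusted p = 0.0300, 0.0337 and 0.0350). None of the 3 calls stood in every setting tried. With libraries scaled on repeat families alone, none of the 3 was called against control hairpin 1. The adjusted p there was 0.0597 for L1M3a, 0.0932 for L1M3b and 0.148 for L1M3f (edgeR). L1M3b and L1M3f lost theirs whichever library was left out and with DESeq2 (adjusted p = 0.110 and 0.102), and also with no filter (adjusted p = 0.0594 and 0.0728). L1M3a lost its call without TARDBP hairpin replicate 1, control hairpin 1 replicate 1 or control hairpin 2 replicate 2 (adjusted p = 0.163, 0.189 and 0.0539). L1M3d, of the same number, had a log2 fold change of 0.00 against the mean of both controls and was called in no comparison.

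L1MDb was the called subfamily whose controls lay closest, with a log2 fold change of 0.01 between them. It stood at 42.8 and 44.8 CPM with the TARDBP hairpin, 32.6 and 36.3 CPM with control hairpin 1, and 34.7 and 34.8 CPM with control hairpin 2, so that only the TARDBP libraries were high. The log2 fold change was 0.35 ± 0.101 against control hairpin 1 (SE, edgeR, adjusted p = 0.0233) and 0.33 ± 0.1 against control hairpin 2 (adjusted p = 0.0235). With libraries scaled on repeat families alone it was 0.25 against control hairpin 1 and not called (edgeR, adjusted p = 0.0741). L1MDb lost its call against control hairpin 1 with DESeq2 (adjusted p = 0.0513) and without either TARDBP library or control hairpin 1 replicate 1 (adjusted p = 0.0586, 0.106 and 0.150).

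**Figure D4:**
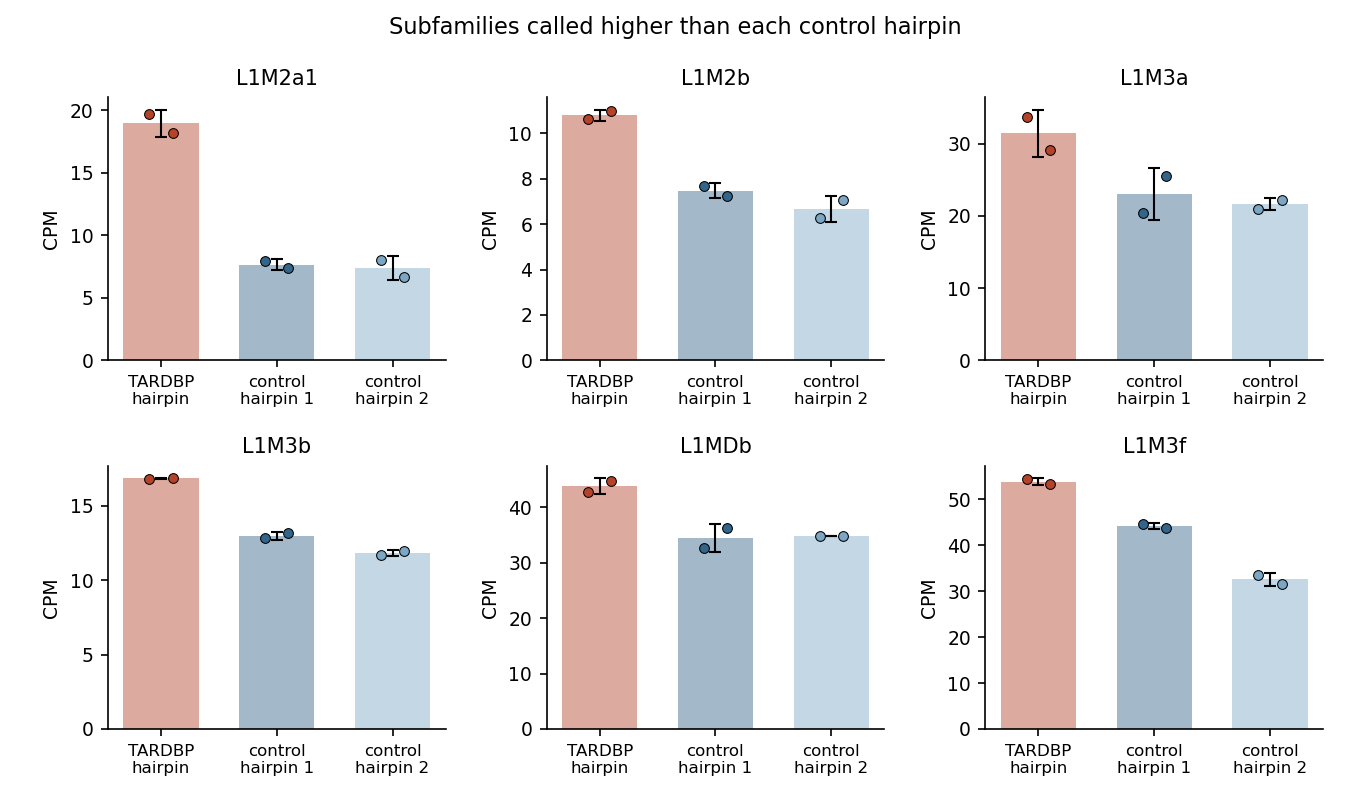
CPM of the 6 older L1 subfamilies called higher with the TARDBP hairpin than with each control hairpin, with points for libraries, bars for means and error bars for SD (n = 2 each); each panel has its own axis from 0. L1M2a1 stands at 19.7 and 18.2 CPM with the TARDBP hairpin and at or below 8.05 CPM in all control libraries, while the other 5 rise by less.

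Since the median repeat family was higher with the TARDBP hairpin than with control hairpin 2, the libraries were also scaled on repeat families alone, which sets each subfamily against the other repeats. On this scale the median of all genes and families was -0.18 against the mean of both controls, -0.06 against control hairpin 1, -0.33 against control hairpin 2 and 0.25 between the controls, beside 0.04, 0.03, 0.02 and -0.01 under the joint scaling. Relative to the other repeats, 3 older L1 subfamilies were higher with the TARDBP hairpin and 2 were lower than the mean of both controls, where 13.1% of all genes and families were higher and 36.2% lower on that scale. The median of the 82 was -0.00092. The 3 higher ones were L1M2a1 (1.11 ± 0.126), L1M2b (0.39 ± 0.127) and L1M3f (0.28 ± 0.0839), and the 2 lower ones L1M2a (-0.32 ± 0.0985) and HAL1b (-0.28 ± 0.0733; log2 fold change with SE, edgeR). L1M2a1 then had the lowest p of the 961 repeat families.

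Between the controls on the same scale, 3 subfamilies were lower with control hairpin 2 and 0 higher, where 36.3% of all genes and families were higher and 8.70% lower. The 3 were L1MCa (-0.26), L1M4b (-0.26) and L1MA9 (-0.25), with adjusted p of 0.0393, 0.0423 and 0.0470 by edgeR. The median of the 82 was -0.13 on this scale, beside 0.0047 for all repeat families.

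**Figure D5:**
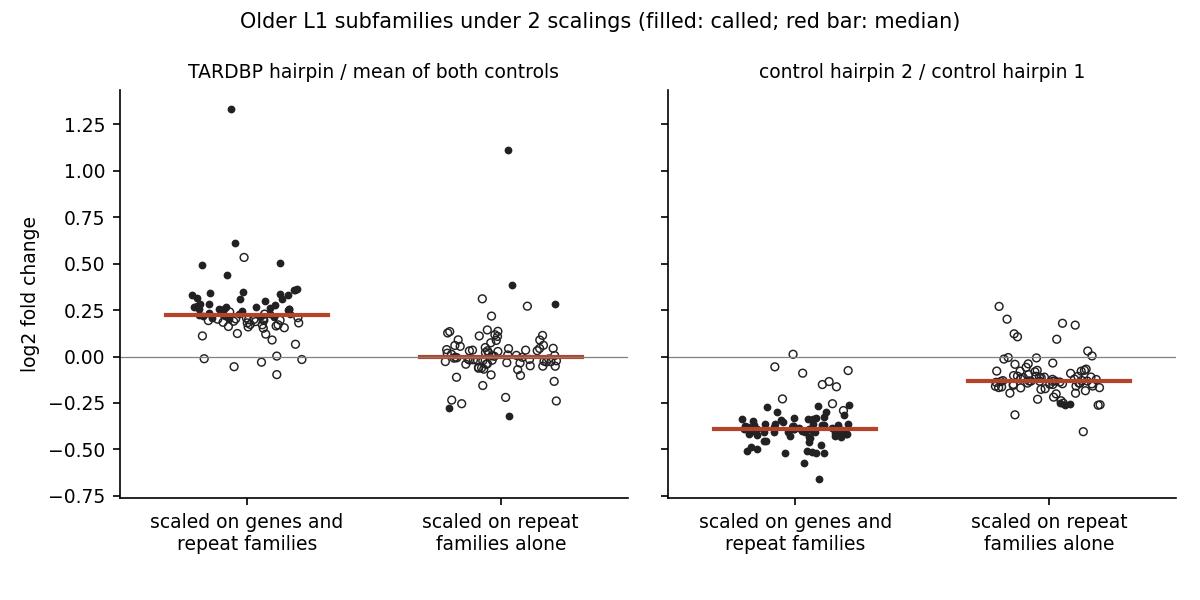
Log2 fold change of the 82 tested older L1 subfamilies under scaling on genes and repeat families together and under scaling on repeat families alone, for the TARDBP hairpin over the mean of both controls and for control hairpin 2 over control hairpin 1; filled points have an adjusted p below 0.05 (edgeR). The median moves to -0.00092 and -0.13 under scaling on repeat families, against 0.22 and -0.39 under the joint scaling, and L1M2a1 stays apart at 1.11.

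Genes that act on such elements were called in both directions, as were all genes and families (23.9% higher and 24.3% lower against the mean of both controls, 21.1% and 21.8% against control hairpin 1, 24.0% and 26.2% against control hairpin 2, and 22.8% and 20.4% between the controls). Of 34 genes for silencing or restricting retrotransposons, 5 rose and 10 fell with the TARDBP hairpin against the mean of both controls, 8 rose and 7 fell against control hairpin 1, and 6 rose and 12 fell against control hairpin 2. Control hairpin 2 itself had 12 of them higher and 6 lower than control hairpin 1. The 4 with the lowest p all fell: UHRF1, which brings maintenance DNA methylation to replicated DNA, by 2.11 on the log2 scale, the de novo DNA methyltransferases DNMT3A and DNMT3B by 0.71 and 1.63, and the histone H3 lysine methyltransferase EHMT1 by 0.58 (edgeR, adjusted p = 9.33e-06, 1.62e-04, 3.19e-04 and 4.88e-04). UHRF1 stood at 11.6 and 11.8 CPM with the TARDBP hairpin, 27.7 and 32.9 CPM with control hairpin 1, and 79.1 and 89.6 CPM with control hairpin 2. It was thus highest with control hairpin 2, where the older L1 counts were lowest, and the part of these genes in the L1 counts was not tested.

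The 5 that rose were FAM208A (0.47), XRN2 (0.37), CBX5 (0.41), ZC3HAV1 (0.29) and MOV10 (0.31; log2 fold change against the mean of both controls). FAM208A encodes TASOR, the scaffold of the HUSH complex, which silences young L1 copies. It stood at 157 and 164 CPM with the TARDBP hairpin, 118 and 118 CPM with control hairpin 1, and 117 and 112 CPM with control hairpin 2, above all controls. XRN2, a nuclear exonuclease that ends transcription, rose against each control too, by 0.43 and 0.31 (edgeR, adjusted p = 0.00504 and 0.0189). CBX5, a heterochromatin protein, was called only against control hairpin 1 and lay between the controls. Its means were 381, 181 and 457 CPM in TARDBP, control 1 and control 2 libraries. ZC3HAV1, an antiviral RNA-binding protein, was also called only against control hairpin 1, and the helicase MOV10 only against control hairpin 2.

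Of 23 tested genes of nuclear RNA surveillance, which degrade or hold back unprocessed nuclear RNA, 4 rose and 6 fell against the mean of both controls, 6 rose and 3 fell against control hairpin 1, and 4 rose and 8 fell against control hairpin 2. These counts stand beside the same shares of all genes and families, 23.9% higher and 24.3% lower against the mean of both controls. The exosome subunit EXOSC6 fell by 0.79, while the poly(A)-binding ZC3H14, the exosome nuclease DIS3 and the exosome cofactor C1D rose by 0.55, 0.56 and 0.80 on the log2 scale (edgeR, adjusted p = 7.14e-04, 7.90e-04, 9.37e-04 and 9.78e-04). The other one of the 4 that rose was METTL14 (0.51), part of the RNA m6A methyltransferase. C1D was called against control hairpin 1 but not control hairpin 2 (log2 fold change 0.20, adjusted p = 0.261 by edgeR).

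RNAs taken here as held in the nucleus were counted as a value that could move with intron-borne repeats. Where each of them lay in these cells was not measured. Of 9 tested, 4 rose (OIP5-AS1, FTX, PVT1 and SNHG14) and 2 fell (TUG1 and KCNQ1OT1) against the mean of both controls, with a median of 0.28, where 23.9% of all genes and families were higher and 24.3% lower. OIP5-AS1 and FTX rose by 0.69 and 0.67, and TUG1 and KCNQ1OT1 fell by 0.63 and 0.52 (edgeR, adjusted p = 3.85e-04, 6.10e-04, 4.13e-04 and 0.00193). OIP5-AS1, FTX and TUG1 were called against each control alone. SNHG14 and KCNQ1OT1 were called only against control hairpin 1, and PVT1 against neither. Control hairpin 2 had 5 of the 9 lower than control hairpin 1 and 0 higher, with a median of -0.33, where 20.4% of all genes and families were lower and 22.8% higher. Summed levels of these RNAs were 15466 and 17238 CPM with the TARDBP hairpin, 16935 and 15222 CPM with control hairpin 1, and 17355 and 13690 CPM with control hairpin 2, mostly MALAT1, and the 3 hairpins overlapped. The part of nuclear RNA content in the older L1 differences was not tested.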

How the data were processed

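RNA was extracted with Trizol, depleted of ribosomal RNA with Ribo-Zero Gold and made into strand-specific libraries, per the labels' protocols. Per the submitters' processing notes, the authors ran bcl2fastq and STAR 2.5.2b on build hg19. The files hold raw counts as deposited, with a line for each gene symbol and each repeat subfamily, per the file headers. Neither the counting program, nor the repeat annotation, nor the handling of strand and of reads that match many places is stated: they are not given in the sources used. Related subfamilies may therefore share or lose reads, and an element cannot be told apart from the transcript around it. Coordinates and sequences of these subfamilies were not used here.

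All lines were fitted at once with edgeR 4.0.16 (R 4.3.3). Of 28953, 17163 passed filterByExpr (minimum count 10, minimum total 15). A single 3-group quasi-likelihood model on the 6 libraries, scaled by TMM, had 3 residual and 5.41 prior degrees of freedom. The SE was the size of the log2 fold change divided by the root of F, and 95% intervals used the t distribution with the total degrees of freedom of the fit. A tested subfamily had at least 28 counts in each library. Alternatives were RLE size factors, DESeq2 1.42.0, no filter, scaling on genes or on repeat families alone, a replicate block, pooled controls and leaving out each library. The code behind the fits was first tested on simulated counts.

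The members, gene lists and tests were chosen with earlier results of these data known. Subfamilies were named with values by a rule: the 2 most counted of each name group, the 5 highest and 5 lowest log2 fold changes with a mean of at least 5 CPM, the 3 highest and 3 lowest between controls, any count of 5 or fewer, and those not tested. Of each gene list it named the 4 called with the lowest p. L1M3d, HAL1-2a_MD, L1MCc, KRT18 and GATA3 were named after their values were seen. Of 25 surveillance symbols kept, 23 were in the files. A further listed symbol, MPP6, was dropped because it can stand for an unrelated gene.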

Additional observations from a re-analysis of the deposited data

How the results depend on the processing

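Under RLE size factors, no filter and scaling on genes alone, every count and median of older L1 subfamilies stayed within 1.5 times its value or within the spread between replicates. Apart from scaling on repeat families, the share of all genes and families called under the alternative settings was not counted. Against the mean of both controls, the count higher (44) was 27 with DESeq2, 27 with the replicate block, 2 with pooled controls and 9 to 47 with a library left out, with medians of 0.16 to 0.25. Against control hairpin 1 the count (6) was 2 with DESeq2 and 1 to 4 with a library left out. Against control hairpin 2 the count (73) was 30 to 73 and the median 0.31 to 0.47 with a library left out. Between the controls the count lower (71) was 22 to 68 and the median -0.45 to -0.31.

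Scaling on repeat families alone moved each comparison. The counts higher and lower were 3 and 2 against the mean of both controls (median -0.00092), 2 and 1 against control hairpin 1 (median -0.064), 4 and 1 against control hairpin 2 (median 0.062), and 0 and 3 between the controls (median -0.13). Against control hairpin 1, 2900 of all 17163 genes and families were higher and 4413 lower under this scaling. On that scale 11 named subfamilies changed sign against the mean of both controls: HAL1 (-0.070), L1M4 (-0.027), L1M5 (-0.013), L1MB3 (-0.029), L1MB7 (-0.017), L1MC4 (-0.020), L1MC4a (-0.038), L1MD2 (-0.13), L1ME1 (-0.015), L1ME4a (-0.023) and L1MEa (-0.16). None of the 11 was called there. Scaling on genes alone turned HAL1-3A_ME (0.016) and L1MEg1 (0.012) positive. With a library left out, HAL1-3A_ME ran from -0.13 to 0.072, L1M from -0.25 to 0.15 and L1MEg1 from -0.057 to 0.019. The causes were not tested.

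The labels do not say whether replicate numbers pair the libraries. The difference between replicates 1 and 2 correlated at -0.23 and -0.25 between the TARDBP hairpin and control hairpins 1 and 2. Between the 2 controls it correlated at 0.23. Values of mixed sign cannot settle whether libraries were paired. The block ended the calls of L1M3b and L1M3f against control hairpin 1 (edgeR, adjusted p = 0.0581 and 0.0577). Depth limits the least counted subfamilies, where 28 counts was the lowest value in a library. With 1 library left out of a hairpin, its remaining library is assumed to vary like the others.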
